A study of Arabidopsis thaliana with 12 samples.

Results

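The genes described are 60 Arabidopsis thaliana loci listed as TIR-type immune receptors, proteins with an N-terminal TIR domain and a nucleotide-binding (NBS) domain, most of them with leucine-rich repeats (LRR). RefSeq names 50 of them TIR-NBS-LRR and 4 TIR-NBS, another 4 have other names, and 2 (AT5G38350 and AT5G40060) are named NBS-LRR with no mention of a TIR domain. The 60 were chosen by locus identifier as the TIR-type receptor genes outside the RPS4/RRS1 pairs, the RPP1 and RPP4/SNC1 clusters and the AT1G729 cluster, and they make up 60 of the 32678 genes in the count table. Poly(A) RNA was sequenced from leaves of 4-week-old plants 4 h after syringe infiltration with Pst AvrRps4, at an OD600 of 0.005. This Pseudomonas syringae strain carries AvrRps4, an effector that TIR-type receptors recognise. There were 3 libraries for each of 4 genotypes, and each library was made from RNA pooled over 4 plants. R493A is a line named for an EDS1 variant with alanine in place of an arginine, eds1-2 is an EDS1 mutant, w.tEDS1 is a line labelled with wild-type EDS1, and Col-0 is the wild-type accession. The labels used here do not give the promoter, the recipient background or the number of independent lines behind R493A and w.tEDS1. All 12 samples were infected and no mock-treated sample was analysed here, so the values compare genotypes within infected leaves.

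TIR-type receptors sense pathogen effectors directly or through the host proteins that effectors modify. Once activated, their TIR domains act as enzymes on nucleotides, and the small molecules they make are sensed by EDS1 in complex with PAD4 or SAG101, which engage the helper receptors of the ADR1 and NRG1 families. The genes lie often in tandem or head-to-head clusters, several of them are induced during defence, and too much of some of them causes autoimmunity, with dwarfed or dying leaves.

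The libraries held between 19273912 and 24572145 counts in genes. EDS1 itself was at 31.1, 23.5 and 19.4 CPM (counts scaled to library size with TMM normalization factors) in R493A, at 3.81, 4.09 and 3.93 CPM in eds1-2, at 124, 196 and 111 CPM in w.tEDS1 and at 32.5, 72.0 and 23.2 CPM in Col-0. R493A and w.tEDS1 thus differed in EDS1 transcript as well as in the encoded residue (log2 fold change -2.54 ± 0.38 SE, edgeR adjusted p = 0.0256), and the 2 differences cannot be told apart in this design. The summed level of 8 mesophyll markers was 28767 to 31439 CPM in R493A, 32940 to 37386 CPM in eds1-2, 32971 to 35980 CPM in w.tEDS1 and 20876 to 29254 CPM in Col-0, so the labelled leaf tissue carried its defining markers at high level. Guard cell markers (7 genes) summed to between 951 CPM in a Col-0 library and 2505 CPM in an R493A library, phloem markers (4 genes) to 317 to 456 CPM, and markers of dividing cells (4 genes) to at most 2.53 CPM. In whole leaves, fewer cells that express a gene and less RNA per cell cannot be told apart. Col-0 libraries stood furthest apart, and 2 of them (replicates 1 and 2) shared a sequencing lane with no other library.

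All 60 loci were present in the table and matched a RefSeq locus of the TAIR10.1 assembly. Of these, 18 lie on chromosome 1, 2 on chromosome 2, 10 on chromosome 4 and 30 on chromosome 5. None lies on chromosome 3, which carries EDS1. Of the 60, 10 did not pass the low-count filter and were not tested. AT5G45200 and AT5G49140 had 0 counts in every library. A count of 0 in a single library still allows an expected count of up to about 3 there. RLM1A (AT1G64070), a receptor gene for resistance to the blackleg fungus Leptosphaeria maculans, had at most 3 counts in any library. Another 5 (AT1G63870, AT5G17970, AT5G18350, AT5G41540 and AT5G48770) had at most 12. TN2 (AT1G17615), which encodes a TIR-NBS protein without repeats, had 0, 0 and 0 counts in R493A, 0, 0 and 1 in eds1-2, 4, 2 and 5 in w.tEDS1 and 6, 24 and 0 in Col-0. AT5G38350 was likewise at 0, 1 and 0 counts in R493A and 0 in every eds1-2 library, against 4, 2 and 4 in w.tEDS1 and 5, 32 and 0 in Col-0. For both genes the highest library was Col-0 replicate 2 and Col-0 replicate 3 had no count.

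The 50 tested members covered a wide range of levels. Per kilobase of annotated exon, RLM3 (AT4G16990), a TIR-NBS gene needed for resistance to several necrotrophic fungi, had the highest mean over 12 libraries at 73.9 CPM per kb. It was followed by the TIR-NBS gene AT1G66090 at 47.3, AT5G41740 at 25.6, RLM1B (AT1G63880, a relative of RLM1A) at 23.4 and RPS6 (AT5G46470, the receptor gene for the bacterial effector HopA1) at 22.3 CPM per kb. The lowest of the tested members was AT5G38340 at 0.279 CPM per kb. RLM3 had 316, 303 and 352 CPM in R493A, 261, 279 and 273 CPM in eds1-2, 358, 316 and 345 CPM in w.tEDS1 and 280, 313 and 253 CPM in Col-0. All eds1-2 libraries lay below all R493A and all w.tEDS1 libraries, R493A overlapped with w.tEDS1, and Col-0 overlapped with R493A and eds1-2.

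Sequences upstream of 4 members are shown because these genes stand for the patterns described next, and because WRKY factors, which act in defence transcription, bind W-boxes. The W-box was searched as TTGACC or TTGACT on either strand in the 250 bases before the annotated gene start of TAIR10.1 (RefSeq), and matches are in capitals. RMG1 lies at chr4:6811103-6817339 on the plus strand and its upstream window at chr4:6810853-6811102, with 1 match whose first base lies 14 bases before the start. SSI4 lies at chr5:16693832-16699028 (plus strand, window chr5:16693582-16693831), with 1 match whose first base lies 104 bases before it. AT1G66090 lies at chr1:24602033-24604763 (plus strand, window chr1:24601783-24602032), with 1 match whose first base lies 9 bases before it. AT5G46490 lies at chr5:18850645-18853896 (plus strand, window chr5:18850395-18850644), and its window held no match.
RMG1 (AT4G11170): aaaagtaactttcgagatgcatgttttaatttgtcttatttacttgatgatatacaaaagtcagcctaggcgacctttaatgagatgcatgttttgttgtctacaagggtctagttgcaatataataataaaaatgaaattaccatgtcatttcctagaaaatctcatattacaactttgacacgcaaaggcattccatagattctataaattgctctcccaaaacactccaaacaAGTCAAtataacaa
SSI4 (AT5G41750): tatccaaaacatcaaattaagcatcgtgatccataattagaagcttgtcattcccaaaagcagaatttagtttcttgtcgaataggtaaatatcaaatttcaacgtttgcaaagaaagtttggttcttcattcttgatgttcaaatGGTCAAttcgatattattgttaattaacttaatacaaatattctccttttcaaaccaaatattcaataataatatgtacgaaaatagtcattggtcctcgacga
AT1G66090: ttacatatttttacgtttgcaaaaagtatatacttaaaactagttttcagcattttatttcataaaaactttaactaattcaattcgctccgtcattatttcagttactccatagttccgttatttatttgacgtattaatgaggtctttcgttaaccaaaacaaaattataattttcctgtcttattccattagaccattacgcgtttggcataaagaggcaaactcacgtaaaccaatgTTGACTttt
AT5G46490: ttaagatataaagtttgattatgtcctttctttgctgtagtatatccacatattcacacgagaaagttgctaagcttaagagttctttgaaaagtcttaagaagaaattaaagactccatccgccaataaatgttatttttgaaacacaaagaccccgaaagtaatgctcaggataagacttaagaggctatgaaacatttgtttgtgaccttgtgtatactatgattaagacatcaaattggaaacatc
A W-box was found upstream of 31 of the 60 members (51.7%), against 28.4% of 27438 protein-coding nuclear genes in windows of the same length. Over the 26 tested members with a W-box the median log2 fold change of the EDS1-mutant lines together (eds1-2 and R493A) against the wild-type EDS1 lines together (w.tEDS1 and Col-0) was -0.33, and over the 24 without it was -0.44. Over all tested genes these medians were -0.03 with and 0.02 without the letters. A match in a window says nothing on whether a factor binds there.

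CHS1 (AT1G17610), SOC3 (AT1G17600) and TN2 form 1 locus on chromosome 1 in which CHS1 and TN2 encode short TIR-NBS proteins and SOC3 the full-length receptor with which they pair. Mutations in CHS1 cause chilling-induced cell death that depends on SOC3. CHS1 had 1.59, 1.92 and 1.80 CPM in R493A, 3.53, 2.32 and 1.82 CPM in eds1-2, 4.20, 9.75 and 4.35 CPM in w.tEDS1 and 6.72, 8.56 and 5.22 CPM in Col-0. Every library of the EDS1-mutant lines was below every library of the wild-type EDS1 lines. CHS1 fell in the 2 lines together by 1.60 on the log2 scale against the 2 wild-type EDS1 lines (SE 0.26, 95% interval -2.16 to -1.03, edgeR adjusted p = 0.0116), a call that was lost without eds1-2 replicate 2 (adjusted p = 0.0512) and with the sequencing lane as a covariate (log2 fold change -1.54). Against Col-0 alone it fell in R493A by 1.94 (SE 0.37, adjusted p = 0.0256) and its value in eds1-2 was -1.41 (adjusted p = 0.0642). Leaving out Col-0 replicate 1 or 2 or any R493A library ended the R493A call, with an adjusted p of up to 0.128. Against w.tEDS1 the values were -1.78 in R493A (adjusted p = 0.129) and -1.25 in eds1-2 (adjusted p = 0.797).

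SOC3 had 5.62, 4.08 and 4.48 CPM in R493A, 5.53, 5.16 and 4.70 CPM in eds1-2, 9.03, 15.3 and 8.47 CPM in w.tEDS1 and 13.3, 27.5 and 6.46 CPM in Col-0. Its 6 EDS1-mutant libraries were also below its 6 wild-type EDS1 libraries, at -1.41 ± 0.30 (SE) on the log2 scale with an adjusted p of 0.0510, which missed the threshold. The annotated exons of the 2 genes overlap on opposite strands in TAIR10.1, where 2212 of the 2455 different 50-base words of CHS1 also occur in SOC3. The library kit does not mark strand, so reads in the shared stretch cannot be told apart. The counter has an entry for ambiguous reads, and how many reads of this stretch went there is not known. If most did, the CHS1 counts rest on a small part of its exons. The ratio of SOC3 to CHS1 counts was 3.53, 2.12 and 2.49 in R493A, 1.57, 2.22 and 2.58 in eds1-2, 2.15, 1.57 and 1.95 in w.tEDS1 and 1.98, 3.22 and 1.24 in Col-0, with overlapping ranges.

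AT4G36150 and AT4G36140 are head-to-head neighbours on chromosome 4 whose annotated starts overlap by 35 bases, and neither has a role known to the annotation used. AT4G36150 (chr4:17104542-17108825, plus strand) had 5.18, 4.35 and 5.97 CPM in R493A, 5.30, 6.37 and 5.08 CPM in eds1-2, 8.35, 11.7 and 11.7 CPM in w.tEDS1 and 14.1, 13.6 and 7.30 CPM in Col-0. All EDS1-mutant libraries lay below all wild-type EDS1 libraries. It fell by 1.05 on the log2 scale in the 2 lines together (SE 0.18, edgeR adjusted p = 0.0161) and by 1.18 in R493A against Col-0 (SE 0.25, adjusted p = 0.0413). The first call was lost without eds1-2 replicate 3 (adjusted p = 0.0565), without R493A replicate 1 (0.0504) and without R493A replicate 2 (0.0535). The second was lost without any 1 of 10 libraries, with an adjusted p of up to 0.176, and was kept without Col-0 replicate 3 (0.00177) and without w.tEDS1 replicate 1. With lane as a covariate the value was -0.61 in the 2 lines together and -0.36 in R493A against Col-0, and both calls were lost. Its neighbour AT4G36140 had 19.5, 19.8 and 25.3 CPM in R493A, 20.0, 22.8 and 23.4 CPM in eds1-2, 25.0, 24.2 and 25.1 CPM in w.tEDS1 and 29.8, 43.3 and 19.4 CPM in Col-0. The ratio of AT4G36140 to AT4G36150 counts was 3.58 to 4.60 in the 6 EDS1-mutant libraries and 2.06 to 3.18 in the 6 wild-type EDS1 libraries, so the pair did not shift by the same factor.

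AT5G46490 lies beside RPS6 on chromosome 5 in a cluster that also holds AT5G46450, VICTL and VICTR. It had 9.52, 13.1 and 9.83 CPM in R493A, 11.5, 9.98 and 7.71 CPM in eds1-2, 18.1, 24.7 and 20.8 CPM in w.tEDS1 and 20.0, 25.4 and 11.1 CPM in Col-0. Both EDS1-mutant groups were clear of w.tEDS1, and Col-0 replicate 3 overlapped with them. The value of the 2 lines together was -0.96 ± 0.19 (SE) on the log2 scale and passed the test (edgeR adjusted p = 0.0400). The call was lost without any 1 of 11 libraries (adjusted p up to 0.130) and kept without Col-0 replicate 3 (0.00189), and with lane as a covariate the value was -0.65 and no call. Against Col-0 the values were -0.80 in R493A (adjusted p = 0.145) and -0.95 in eds1-2 (adjusted p = 0.0851). Against w.tEDS1 they were -0.97 in R493A (adjusted p = 0.426) and -1.12 in eds1-2 (adjusted p = 0.461, and 0.0483 without Col-0 replicate 3). Of the 50-base words in its exons, 25.9% occur elsewhere in the genome, and 21.1% are shared with the member AT5G46260, so its counts are uncertain.

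RMG1, an NLR gene known to be induced by the bacterial peptide flg22 and held down by DNA methylation, gave the largest fold changes among the members. It had 21, 15 and 6 counts in R493A, 22, 9 and 11 counts in eds1-2, 86, 118 and 37 counts in w.tEDS1 and 277, 1357 and 27 counts in Col-0. As CPM these were 0.930, 0.687 and 0.309 in R493A, 0.864, 0.387 and 0.527 in eds1-2, 4.15, 5.14 and 1.73 in w.tEDS1 and 11.6, 66.0 and 1.34 in Col-0. The 6 EDS1-mutant libraries were below the other 6, and within Col-0 the highest library was 49.2-fold above the lowest. RMG1 fell by 5.45 on the log2 scale in eds1-2 against Col-0 (SE 1.15, 95% interval -7.98 to -2.91, edgeR adjusted p = 0.0408), by 5.33 in R493A against Col-0 (SE 1.15, adjusted p = 0.0430) and in the 2 lines together (log2 fold change -3.97, SE 0.80, adjusted p = 0.0400). Without Col-0 replicate 2 the value in eds1-2 against Col-0 was -3.44 (adjusted p = 0.0886) and in R493A against Col-0 it was -3.32 (adjusted p = 0.0926). Both calls were kept only without Col-0 replicate 3 among the 12 libraries left out in turn, with adjusted p of up to 0.171 and 0.195 otherwise. The call of the 2 lines together was lost without any 1 of 10 libraries (adjusted p up to 0.132) and kept without Col-0 replicate 2 (0.0318) or 3 (0.00124). With lane as a covariate the value was -1.27 in eds1-2 against Col-0 (adjusted p = 0.999), -0.86 in R493A against Col-0 (adjusted p = 0.986) and -1.79 in the 2 lines together, and no call was left. Against w.tEDS1 the values were -2.49 ± 1.12 in R493A and -2.61 ± 1.12 in eds1-2 (SE), with adjusted p of 0.999 and 1.00, and neither passed the test.

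AT1G56520, in the tandem cluster of the white rust resistance genes WRR4A (AT1G56510) and WRR4B (AT1G56540), had 5.40, 7.14 and 6.07 CPM in R493A, 9.54, 5.03 and 6.56 CPM in eds1-2, 13.5, 15.4 and 11.5 CPM in w.tEDS1 and 10.5, 31.5 and 7.85 CPM in Col-0. Both EDS1-mutant groups were below w.tEDS1 without overlap, and eds1-2 overlapped with Col-0. Its log2 fold change was -1.12 ± 0.44 in R493A and -0.93 ± 0.44 in eds1-2 against w.tEDS1 (SE), and -1.42 ± 0.44 in R493A and -1.24 ± 0.44 in eds1-2 against Col-0 (SE), and none of these passed the test. WRR4A in the same cluster had 54.1, 35.7 and 54.9 CPM in R493A, 34.9, 43.3 and 61.1 CPM in eds1-2, 59.1, 39.2 and 54.6 CPM in w.tEDS1 and 54.6, 102 and 26.9 CPM in Col-0, with all groups overlapping.

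**Figure D1:**
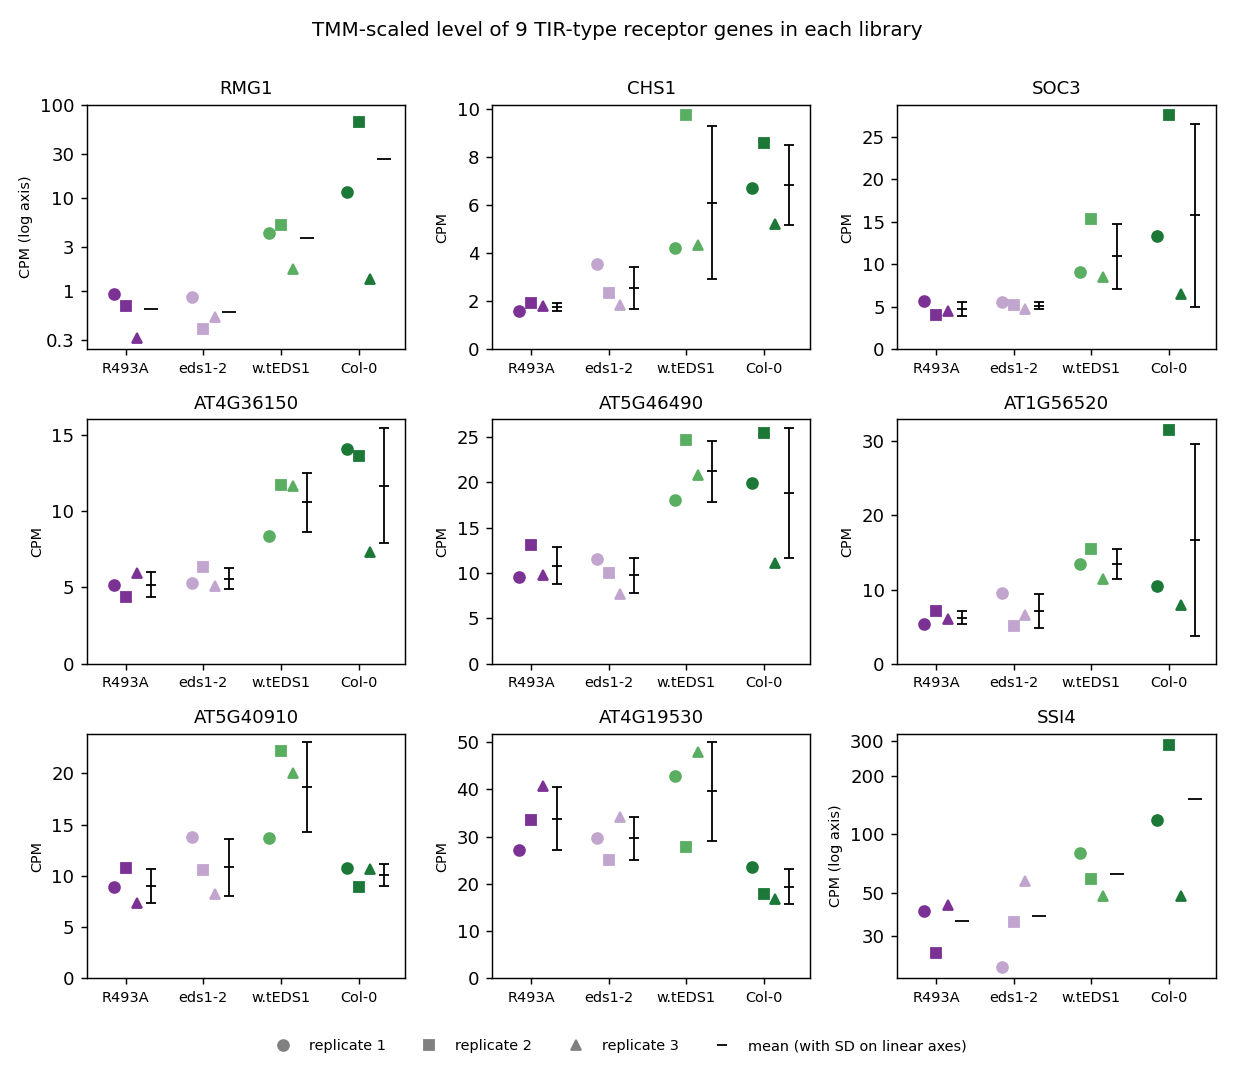
TMM-scaled CPM of 9 members in each library (vertical axis, logarithmic for RMG1 and SSI4) by genotype (horizontal axis), with replicates as symbols and black dashes for the mean of 3 libraries with bars of 1 SD on linear axes. RMG1, CHS1, SOC3 and AT4G36150 show R493A and eds1-2 below w.tEDS1 and Col-0 in every library, AT5G40910 is at 13.7 to 22.2 CPM in w.tEDS1 and at 7.36 to 13.8 CPM elsewhere, and AT4G19530 is lowest in Col-0.

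Across the set, few members passed the test and most leaned the same way. In R493A against Col-0, 3 of 50 members were called lower (CHS1, AT4G36150 and RMG1) and none higher, against 1.51% of all 18770 tested genes called lower, 0.266% called higher and 1.77% called in either direction. In eds1-2 against Col-0, RMG1 alone was called lower and none higher, against 1.44% lower, 0.602% higher and 2.04% in either direction. At an unadjusted p under 0.05, 14 members were lower and 2 higher in R493A against Col-0 (12% and 7.57% of all tested genes), and 15 were lower and 2 higher in eds1-2 against Col-0 (12.6% and 10.2%). In the 2 EDS1-mutant lines together against the 2 wild-type EDS1 lines together, 4 members were called lower (CHS1, AT4G36150, RMG1 and AT5G46490) and none higher, against 1.08% lower, 0.0959% higher and 1.17% in either direction. These comparisons share the Col-0 libraries or contain each other and are not independent. At an unadjusted p under 0.05, 21 members were lower and none higher in the joint comparison, against 7.81% and 3.39% of all tested genes. In the comparison of any difference among the 4 genotypes, RMG1 (adjusted p = 0.0381) and CHS1 (0.0404) passed, 2 of 50 members, against 1.48% of all tested genes, and 17 members had an unadjusted p under 0.05, against 17.2%.

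No member passed the edgeR test in R493A against w.tEDS1, where 0.224% of all tested genes were called (0.208% lower, 0.0160% higher). At an unadjusted p under 0.05, 11 members were lower and none higher, against 3.38% and 1.23% of all tested genes. DESeq2 called 3 members there (CHS1, AT4G36150 and AT5G40910), against 0.826% of all genes it tested, and limma-voom called none, against 0.123%. With the replicate number as a block no member passed either, against 0.0799%. No member passed in eds1-2 against w.tEDS1 either, where 0.0746% of all tested genes were called, all of them lower. Here 13 members were lower and none higher at an unadjusted p under 0.05, against 2.15% and 0.506% of all tested genes, DESeq2 called AT5G46490 alone (0.448% of all tested genes) and limma-voom called none (0.0320%). In R493A against eds1-2 no member passed (0.0373% of all tested genes did, 0.0266% lower and 0.0107% higher), 1 was higher and none lower at an unadjusted p under 0.05 (0.916% and 1.24% of all tested genes), and neither DESeq2 (0.165%) nor limma-voom (0.0373%) called any.

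The direction was shared by most members. In R493A against w.tEDS1, 45 of 50 members had a log2 fold change below 0 and the median was -0.23, against 48.7% of all tested genes below 0 and a median of 0.01. In eds1-2 against w.tEDS1, 47 of 50 were below 0 with a median of -0.32, against 47.7% of all tested genes and a median of 0.01. The 8 mesophyll markers were all below 0 in R493A against w.tEDS1 too, with a median of -0.19, and 5 of 8 were in eds1-2 against w.tEDS1, with a median of -0.03. In R493A and in eds1-2 against Col-0 none of the 8 was below 0, with medians of 0.25 and 0.45. Their part in the members' values was not tested. Against Col-0, 39 of 50 were below 0 in R493A with a median of -0.34 (all tested genes 48.7% and 0.01), and 42 of 50 in eds1-2 with a median of -0.41 (51.2% and -0.01). Without Col-0 replicate 2 the median was -0.11 in R493A and -0.16 in eds1-2, and without Col-0 replicate 3 it was -0.60 and -0.67. With sequencing lane as a covariate, a fit in which Col-0 is set by its replicate 3 alone, these medians turned to 0.29 in R493A and 0.25 in eds1-2, so lane and genotype cannot be told apart there. R493A and eds1-2 set against each other had 22 of 50 below 0 and a median of 0.03.

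Members whose libraries did not overlap between groups were counted next. In R493A against w.tEDS1, 19 of 50 members had all R493A libraries below all w.tEDS1 libraries and none the reverse, against 7.68% and 5.31% of all tested genes. In eds1-2 against w.tEDS1, 22 members had all eds1-2 libraries lower and none higher, against 5.09% and 2.72%. Most R493A and eds1-2 libraries came from other lanes than w.tEDS1, so lane and genotype are partly confounded in both comparisons. For R493A against Col-0 the counts were 6 lower and 1 higher, against 10.6% and 8.96%, and for eds1-2 against Col-0 they were 4 lower and 2 higher, against 10.3% and 10.2%. In R493A against eds1-2, 0 were lower and 3 higher, against 3.89% and 4.17%. CHS1, SOC3, RMG1 and AT4G36150 were the 4 members with all 6 EDS1-mutant libraries below all 6 wild-type EDS1 libraries and none had the reverse, against 1.11% and 0.0746% of all tested genes. Because the exons of CHS1 and SOC3 overlap, these 2 may not be separate measurements. Leaving out a library of the groups compared can, at a fixed scaling, only keep or add to such a count. Without Col-0 replicate 3 it was 34 members in eds1-2 against Col-0 (22.6% of all tested genes) and 12 in the joint comparison (2.1%). Among the 42 tested members with at most 10% repeated 50-base words, 13 were lower in R493A and 18 in eds1-2 against w.tEDS1 without overlap, where 7.68% and 5.09% of all tested genes were. This split does not count exons that overlap on opposite strands, so CHS1 and SOC3 are among the 42.

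**Figure D2:**
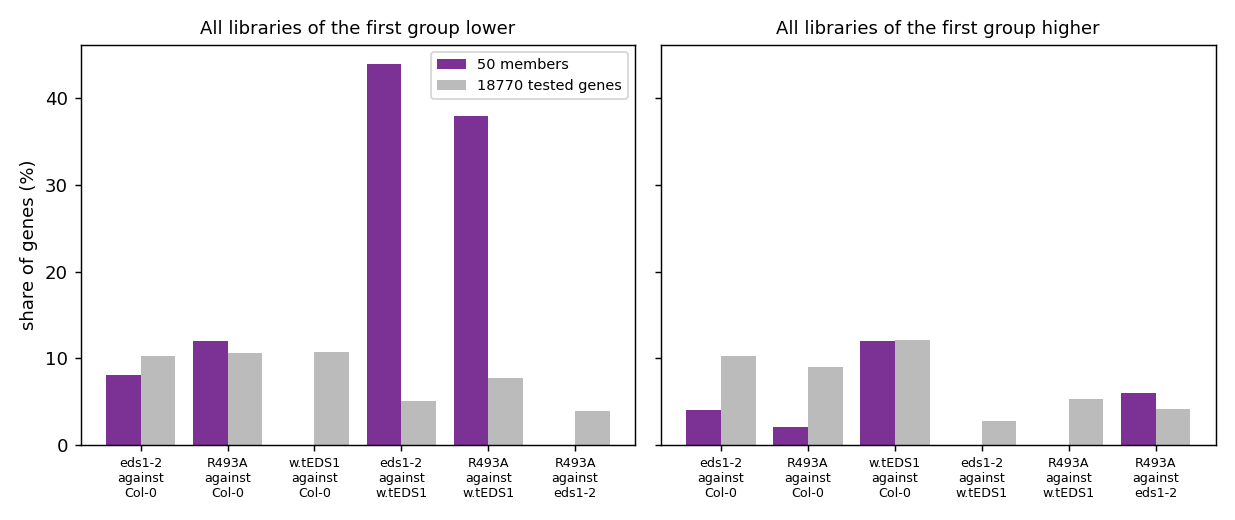
Share of genes (vertical axis, %) whose 3 libraries of the first-named group all lie below (left panel) or above (right panel) the 3 libraries of the second, for the 50 tested members (purple bars) and all 18770 tested genes (grey bars) in 6 comparisons. In the left panel the members reach 44% in eds1-2 and 38% in R493A against w.tEDS1, against 5.09% and 7.68% of all tested genes, and in the 3 comparisons against Col-0 they are at 0% to 12% against 10.3% to 10.7%.

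**Figure D3:**
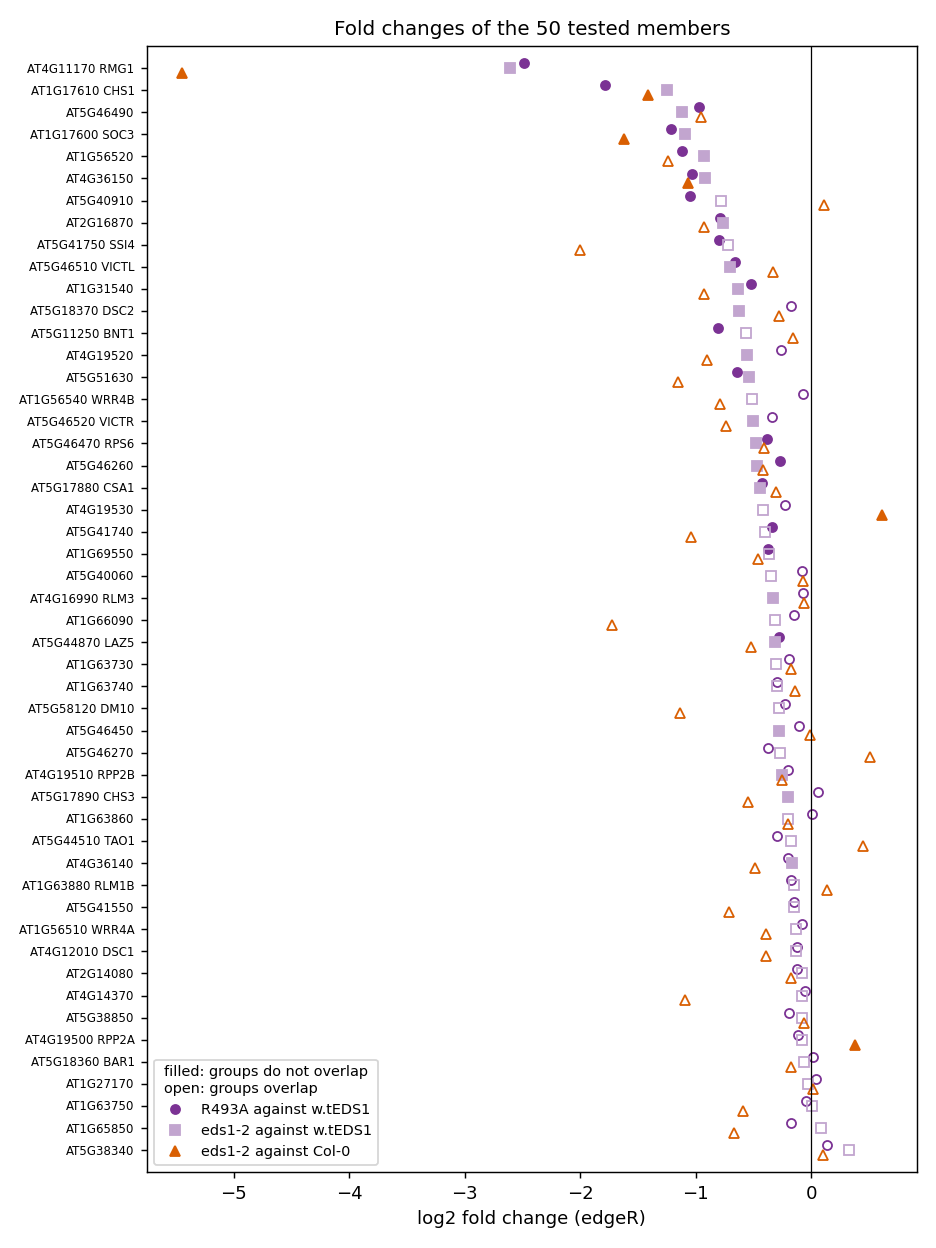
Log2 fold change (horizontal axis) of each of the 50 tested members (rows, ordered by eds1-2 against w.tEDS1) in R493A against w.tEDS1 (circles), eds1-2 against w.tEDS1 (squares) and eds1-2 against Col-0 (triangles), with filled symbols where the 2 groups do not overlap. Most circles and squares lie between -1 and 0, with medians of -0.23 and -0.32, and RMG1 has the largest decrease in each comparison shown.

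Among 9 tested receptors of known pathogen specificity or induction by pathogen signals, 8 were below 0 in R493A and 9 in eds1-2 against w.tEDS1, with medians of -0.11 and -0.25, and RMG1 was the only one called in any comparison. RPS6 had 97.0, 91.6 and 109 CPM in R493A, 89.9, 96.3 and 93.1 CPM in eds1-2, 129, 124 and 135 CPM in w.tEDS1 and 114, 179 and 79.0 CPM in Col-0. Its EDS1-mutant libraries all lay under w.tEDS1 and within the range of Col-0. Its log2 fold changes were -0.39 in R493A and -0.48 in eds1-2 against w.tEDS1, and -0.32 and -0.41 against Col-0. RPP2A (AT4G19500) and RPP2B (AT4G19510) are both needed for resistance to a downy mildew isolate. RPP2A had 29.0, 35.1 and 36.0 CPM in R493A, 41.4, 30.2 and 30.9 CPM in eds1-2, 35.6, 36.8 and 35.6 CPM in w.tEDS1 and 29.4, 26.0 and 23.2 CPM in Col-0, so that eds1-2 and w.tEDS1 lay above Col-0 without overlap. RPP2B had 40.8, 41.3 and 51.5 CPM in R493A, 41.7, 42.4 and 44.6 CPM in eds1-2, 55.8, 46.5 and 51.0 CPM in w.tEDS1 and 52.5, 69.2 and 31.8 CPM in Col-0, and only eds1-2 and w.tEDS1 were apart. BAR1 (AT5G18360), the receptor gene for the effector HopB, had 10.9, 9.85 and 13.0 CPM in R493A, 7.93, 11.1 and 12.9 CPM in eds1-2, 12.4, 7.97 and 13.0 CPM in w.tEDS1 and 13.4, 15.3 and 7.30 CPM in Col-0, with all groups overlapping. Its difference between R493A and w.tEDS1 was 0.02 on the log2 scale, with a 95% interval of -0.61 to 0.64.

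Another 13 tested receptors were grouped as known from autoimmune mutants or as guards of host proteins. The group also holds VICTR, VICTL and TAO1, which are described below in other terms. Of these 13, 12 were below 0 in R493A and 13 in eds1-2 against w.tEDS1, with medians of -0.34 and -0.50. Without overlap, 7 and 8 of them lay below w.tEDS1, where 7.68% and 5.09% of all tested genes did. CSA1 (AT5G17880) and CHS3 (AT5G17890) are transcribed away from each other and encode a receptor pair in which a gain-of-function CHS3 allele causes cold-induced autoimmunity. CSA1 had 16.4, 18.1 and 14.3 CPM in R493A, 16.5, 17.2 and 14.6 CPM in eds1-2, 20.6, 24.8 and 20.3 CPM in w.tEDS1 and 25.0, 19.6 and 15.2 CPM in Col-0. CHS3 had 42.0, 38.6 and 37.6 CPM in R493A, 33.6, 31.2 and 34.2 CPM in eds1-2, 41.9, 36.8 and 35.0 CPM in w.tEDS1 and 42.2, 77.3 and 24.7 CPM in Col-0. CSA1 was thus below w.tEDS1 in both EDS1-mutant groups, while CHS3 was below it in eds1-2 alone and R493A overlapped with w.tEDS1. The ratio of CHS3 to CSA1 counts was 3.95 in Col-0 replicate 2 and 1.48 to 2.63 in the other 11 libraries.

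SSI4 (AT5G41750), in which a gain-of-function allele causes salicylic acid-dependent autoimmunity, had 40.2, 24.4 and 42.9 CPM in R493A, 20.7, 35.3 and 57.5 CPM in eds1-2, 79.6, 58.7 and 48.1 CPM in w.tEDS1 and 118, 287 and 48.0 CPM in Col-0. R493A was below w.tEDS1 and Col-0 without overlap, eds1-2 overlapped with both, and the highest level was in Col-0 replicate 2. Its log2 fold change against Col-0 was -2.07 in R493A (95% interval -3.30 to -0.85, edgeR adjusted p = 0.0818), and in eds1-2 its 95% interval was -3.22 to -0.77 (adjusted p = 0.0801). The tandem neighbour AT5G41740 had 84.7, 59.0 and 84.7 CPM in R493A, 45.9, 69.3 and 104 CPM in eds1-2, 110, 91.5 and 87.2 CPM in w.tEDS1 and 115, 272 and 60.9 CPM in Col-0. The ratio of SSI4 to AT5G41740 counts was 0.413 to 0.507 in R493A, 0.451 to 0.555 in eds1-2, 0.552 to 0.725 in w.tEDS1 and 0.788 to 1.05 in Col-0, an order in which R493A and eds1-2 overlapped, w.tEDS1 overlapped with eds1-2 at their edge, and Col-0 stood clear of the rest. Repeated 50-base words made up 12.3% of SSI4 and 13.3% of AT5G41740, so part of their reads is uncertain.

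LAZ5 (AT5G44870), whose loss suppresses the cell death of an accelerated cell death mutant, had 39.8, 36.1 and 40.5 CPM in R493A and 36.9, 35.5 and 40.7 CPM in eds1-2, below the 48.3, 43.9 and 48.7 CPM of w.tEDS1, with Col-0 at 53.7, 78.1 and 30.2 CPM. DSC1 (AT4G12010) and DSC2 (AT5G18370), linked to the autoimmunity of mutants in the calmodulin-binding factor CAMTA3, had log2 fold changes of -0.12 and -0.17 in R493A and of -0.13 and -0.63 in eds1-2 against w.tEDS1. Against Col-0 they were at -0.38 and 0.18 in R493A and at -0.39 and -0.28 in eds1-2. DSC2 had 4.96, 7.10 and 5.71 CPM in R493A, 5.02, 4.73 and 3.16 CPM in eds1-2, 5.94, 6.97 and 7.11 CPM in w.tEDS1 and 6.64, 5.50 and 3.53 CPM in Col-0, and of the comparisons with w.tEDS1 and Col-0 only that of eds1-2 with w.tEDS1 showed no overlap. BNT1 (AT5G11250) had 10.7, 13.8 and 11.6 CPM in R493A, 16.7, 15.5 and 10.3 CPM in eds1-2, 16.0, 26.0 and 21.1 CPM in w.tEDS1 and 20.5, 11.9 and 15.1 CPM in Col-0. R493A was below w.tEDS1 without overlap (log2 fold change -0.80 ± 0.25 SE, edgeR adjusted p = 0.565) and overlapped with Col-0 (-0.40 ± 0.25), and eds1-2 overlapped with both w.tEDS1 (-0.57 ± 0.25) and Col-0 (-0.16 ± 0.25). VICTR (AT5G46520), needed for the response to the small molecule DFPM, and its neighbour VICTL (AT5G46510) were at -0.34 and -0.66 in R493A and at -0.50 and -0.70 in eds1-2 against w.tEDS1, and at -0.57 and -0.29 in R493A and -0.74 and -0.33 in eds1-2 against Col-0, but 66.2% and 49.5% of their 50-base words are repeated and their values are uncertain. None of the 6 genes named here passed the edgeR test.

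Members without a described function made up 28 of the tested genes, of which 25 were below 0 in R493A and 25 in eds1-2 against w.tEDS1, with medians of -0.22 and -0.31, and 10 in each comparison lay below it without overlap, against 7.68% and 5.09% of all tested genes. AT2G16870 had 6.11, 5.82 and 5.35 CPM in R493A, 4.28, 5.98 and 7.43 CPM in eds1-2, 8.64, 12.3 and 8.99 CPM in w.tEDS1 and 12.8, 15.7 and 5.12 CPM in Col-0. AT1G31540 had 47.6, 39.3 and 48.9 CPM in R493A, 35.4, 41.2 and 48.8 CPM in eds1-2, 58.9, 66.1 and 69.5 CPM in w.tEDS1 and 85.1, 113 and 41.2 CPM in Col-0. In both genes the EDS1-mutant groups were clear of w.tEDS1 and overlapped with Col-0 through replicate 3, and neither passed the test.

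AT5G40910 and AT4G19530 had other orders of the groups. AT5G40910 had 8.94, 10.7 and 7.36 CPM in R493A, 13.8, 10.5 and 8.24 CPM in eds1-2, 13.7, 22.2 and 20.1 CPM in w.tEDS1 and 10.8, 8.86 and 10.6 CPM in Col-0. The w.tEDS1 libraries were clear of R493A and Col-0 and overlapped with eds1-2 through 1 library of each, and the other groups overlapped with one another. The log2 fold change was -1.05 ± 0.23 in R493A against w.tEDS1 (SE, edgeR adjusted p = 0.176) and 0.89 ± 0.23 in w.tEDS1 against Col-0 (adjusted p = 0.0776). AT4G19530, in the RPP2 cluster, had 27.2, 33.6 and 40.7 CPM in R493A, 29.6, 25.1 and 34.2 CPM in eds1-2, 42.9, 27.9 and 48.0 CPM in w.tEDS1 and 23.6, 17.9 and 16.7 CPM in Col-0. Here Col-0 was lowest and each of the other groups lay above it without overlap, at 0.80 in R493A, 0.61 in eds1-2 and 1.03 in w.tEDS1 on the log2 scale, with edgeR adjusted p of 0.0922, 0.146 and 0.0537. Its head-to-head neighbour AT4G19520 had 108, 74.3 and 109 CPM in R493A, 56.3, 80.9 and 102 CPM in eds1-2, 128, 114 and 108 CPM in w.tEDS1 and 140, 239 and 65.4 CPM in Col-0. The ratio of AT4G19520 to AT4G19530 counts was 3.91 to 13.4 in Col-0 and 1.90 to 4.09 in the other 9 libraries.

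w.tEDS1 and Col-0, the 2 lines with wild-type EDS1, were also compared with each other. No member passed the edgeR test between them, against 1.09% of all tested genes (0.581% lower and 0.506% higher in w.tEDS1), while 3 were lower and 6 higher at an unadjusted p under 0.05, against 12% and 10.7%. DESeq2 called 2 members there, against 9.51% of all genes it tested, and limma-voom none, against 0.890%. Of the 50, 6 had all w.tEDS1 libraries above all Col-0 libraries and 0 had them below, against 12.1% and 10.7% of all tested genes. The 6 were RLM3, RPP2A, AT4G19530, AT5G40910, TAO1 (AT5G44510), which contributes to the response to the effector AvrB, and AT5G46270. A log2 fold change below 0 was found for 30 of 50, with a median of -0.13 that turned to 0.16 without Col-0 replicate 2 and to 0.63 with lane as a covariate.

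For several members the spread within Col-0 was wider than that within the other groups. AT1G66090 had 74.3, 35.9 and 48.9 CPM in R493A, 25.0, 46.0 and 71.0 CPM in eds1-2, 75.0, 46.0 and 55.8 CPM in w.tEDS1 and 97.4, 309 and 63.1 CPM in Col-0. DM10 (AT5G58120), a gene behind hybrid necrosis between accessions, had 25.5, 17.7 and 24.5 CPM in R493A, 14.3, 22.3 and 28.6 CPM in eds1-2, 31.4, 22.5 and 25.3 CPM in w.tEDS1 and 34.8, 89.7 and 18.3 CPM in Col-0. In both, Col-0 replicate 2 was the highest library and the other groups overlapped. In AT4G14370 the highest library was also Col-0 replicate 2, with 45.2, 74.4 and 16.8 CPM in Col-0 and 11.5 to 32.3 CPM in the 9 other libraries.

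Over the whole set, Col-0 replicate 2 was the highest library for 29 of the 50 tested members, against 24.7% of all tested genes, and Col-0 replicate 3 was the lowest for 22, against 8.38%. The median deviation of a library's members from their own mean was -0.15, -0.16 and -0.02 on the log2 scale in R493A, -0.24, -0.18 and -0.08 in eds1-2, 0.17, 0.15 and 0.18 in w.tEDS1 and 0.29, 0.66 and -0.41 in Col-0. Every R493A and eds1-2 library thus lay below every w.tEDS1 library, and the Col-0 libraries spanned them all. The fold between the highest and the lowest library of a group had a median over members of 1.28 in R493A, 1.42 in eds1-2, 1.37 in w.tEDS1 and 2.21 in Col-0, against 1.28, 1.35, 1.29 and 1.52 over all tested genes. The salicylic acid genes (14 genes, among them ICS1 and PR1) moved with the members across the Col-0 libraries, with summed levels of 1364, 2262 and 541 CPM in Col-0 replicates 1, 2 and 3. They summed to 153 to 222 CPM in R493A, 169 to 173 CPM in eds1-2 and 615 to 993 CPM in w.tEDS1. Their part in the members' levels was not tested.

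**Figure D4:**
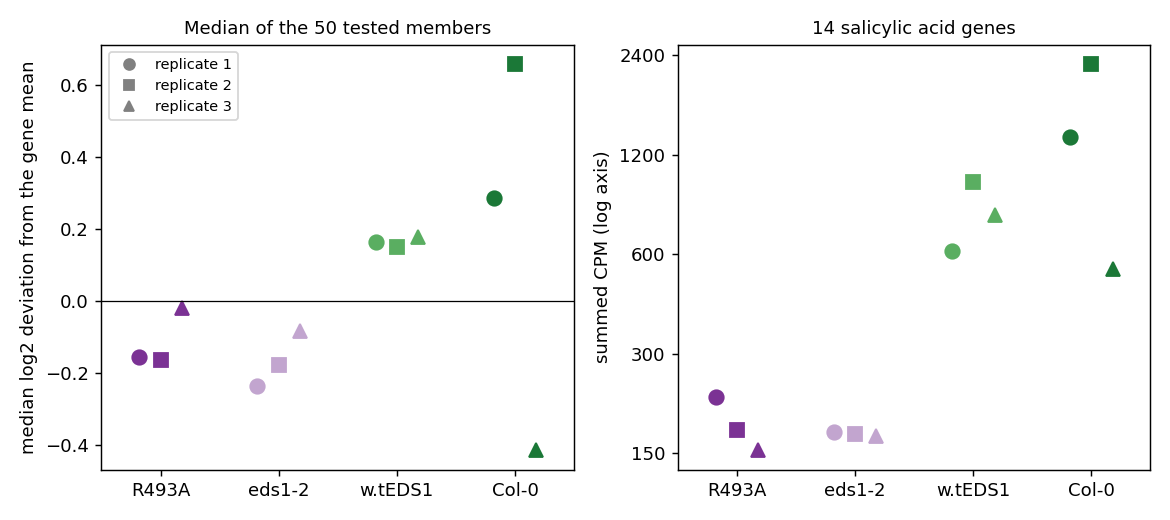
Left, median over the 50 tested members of the log2 deviation from each gene's mean over 12 libraries (vertical axis) in each library, and right, summed CPM of 14 salicylic acid genes (vertical axis, logarithmic), both by genotype with replicates as symbols. The w.tEDS1 libraries lie between 0.15 and 0.18 on the left, those of R493A and eds1-2 below 0, and the 3 Col-0 libraries span -0.41 to 0.66.

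The effects of the 2 EDS1 alleles were also set against each other, each taken against a different reference line. The choice of w.tEDS1 for R493A and of Col-0 for eds1-2 was made here and is not given by the labels. The difference of effects therefore also holds any difference between w.tEDS1 and Col-0. The difference between the effect of R493A, taken against w.tEDS1, and the effect of eds1-2, taken against Col-0, passed edgeR for 0 of 50 members, against 0.160% of all tested genes, with 3 members at an unadjusted p under 0.05 (15.2% of all tested genes) and AT5G40910 alone was called by DESeq2 (2.87% of all genes it tested). The smallest edgeR adjusted p was 0.188, at AT5G40910, with a difference of -1.16 on the log2 scale. AT5G40910 was at -1.05 in R493A against w.tEDS1 and at 0.11 in eds1-2 against Col-0. Its mean was 9.01 CPM in R493A and 10.9 in eds1-2, and 18.6 in w.tEDS1 and 10.1 in Col-0. The 2 reference lines thus stood further apart than the 2 EDS1-mutant lines. For CHS1 the difference of effects was -0.37 (adjusted p = 0.724) and for AT4G36150 it was 0.03 (adjusted p = 0.973). A p that misses the threshold does not show that the alleles act alike.

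Other genes of the pathway were measured in the same fit, in the joint comparison of the EDS1-mutant with the wild-type EDS1 lines. In that comparison 1.08% of all tested genes were called lower and 0.0959% higher. Of 10 genes of the EDS1 module and its helper receptors, which include EDS1 itself, 6 were called lower and none higher, with a median of -0.81. Among them NRG1.2, a helper receptor gene, was at -1.67 ± 0.21 (SE, adjusted p = 0.00265) and PAD4, the partner of EDS1, at -2.74 ± 0.50 (adjusted p = 0.0240). Of 10 receptor genes with a coiled-coil in place of the TIR domain, 3 were called lower (RPP13, RPP7 and RPS2) and none higher, with a median of -0.25. RPS2 was at means of 13.2 CPM in R493A, 16.2 in eds1-2, 25.2 in w.tEDS1 and 29.4 in Col-0, with both EDS1-mutant groups clear of w.tEDS1. RPP13 was at means of 5.22 CPM in R493A, 6.01 in eds1-2, 7.58 in w.tEDS1 and 37.1 in Col-0, and w.tEDS1 itself was called lower than Col-0 (edgeR adjusted p = 0.00165). RPP7 was at means of 67.3 CPM in R493A, 216 in eds1-2, 241 in w.tEDS1 and 362 in Col-0. Its R493A libraries were at 61.8 to 72.2 CPM and the other 9 libraries at 173 to 589 CPM, with eds1-2 just under w.tEDS1 and within the range of Col-0. All 10 were also below 0 in R493A and in eds1-2 against w.tEDS1, with medians of -0.34 and -0.28, beside -0.23 and -0.32 for the 50 TIR-type members. The 4 genes of the RPS4/RRS1 and RPS4B/RRS1B pairs, the receptors of AvrRps4, had a median of -0.30 and none was called. Of 11 tested genes that control the stability or transcription of NLRs, among them SGT1B and RAR1, none was called and the median was -0.03. Of the 14 salicylic acid genes 9 were called lower and none higher, with a median of -3.35.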

How the data were processed

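Gene read counts were deposited by the authors as 1 table for 12 libraries. Reads were aligned to TAIR10 with TopHat2 and counted with HTSeq, with limma also named, per the submitters' processing notes, which give no versions. The 5 summary entries of the counter took 9.69% to 22.9% of a column, mostly multi-mapped reads (7.28% to 19.6%), and were left out, so near-identical receptor genes lose reads.

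From the counts, edgeR 4.0.16 in R 4.3.3 (filterByExpr, TMM scaling, quasi-likelihood test, prior count 0.125, genotype as the only term, 12 libraries) was fitted to 18770 genes, with Benjamini-Hochberg adjustment over all of them and an adjusted p under 0.05 as a call. It gave 7 comparisons, the difference of effects and the test of any difference. CPM values are TMM-scaled, and library deviations use log2(CPM + 0.5). SE and 95% intervals come from the same fit, and p-values measure the spread between libraries, each from a pool of 4 plants. That spread also holds run and lane differences where the libraries of a genotype came from different runs or lanes. "Groups do not overlap" means that every library of one group is below every library of the other.

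On simulated data for eds1-2 against w.tEDS1 (18628 genes), a log2 change of -1 was recovered for 27 and of -2 for 47 of 50 genes each. The changed genes were drawn only from those with higher counts, and all other genes had equal means in every genotype. The recovery therefore need not hold for the members. DESeq2 1.42.0, limma 3.58.1 (voom), no filter, another scaling, the replicate block, run, lane, only the groups compared, and leaving out each library were tried. Deviations of same-numbered libraries from their group means correlated above 0.1 in all 3 numbers between R493A and w.tEDS1 (0.15, 0.44 and 0.19) and in no other pair of groups (down to -0.58). The labels do not say that a number marks a shared batch, and the blocked fit is given beside that comparison. The members, the 9 gene lists and the tests were chosen with earlier results of these data known. Values per library are given for called members, for the 5 members with the largest changes at 1 CPM or more without overlap in each of 3 comparisons (eds1-2 against Col-0 and w.tEDS1, R493A against w.tEDS1), for named receptor pairs, and for other members chosen after their values were seen. Coordinates, exon lengths and upstream sequences are from RefSeq's annotation of TAIR10.1, which matched 60 of 60 members by locus tag. The counts do not use it.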

Additional observations from a re-analysis of the deposited data

How the results depend on the processing

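Few calls were stable, and the share of all tested genes called is given in brackets beside each count. With DESeq2 the members called were 8 in eds1-2 against Col-0 (10.0%), 9 in R493A against Col-0 (7.76%), 1 in eds1-2 against w.tEDS1 (0.448%), 3 in R493A against w.tEDS1 (0.826%), 2 in w.tEDS1 against Col-0 (9.51%), 9 in the joint comparison of the EDS1-mutant lines (3.44%) and 1 for the difference of effects (2.87%). With limma-voom they were 0 in eds1-2 against Col-0 (1.19%), 0 in R493A against Col-0 (0.986%) and 2 in the joint comparison (0.820%). With run as a covariate they were 0 (0.725%), 1 (0.964%) and 1 (0.559%) in these 3 comparisons, 2 in w.tEDS1 against Col-0 (3.04%) and 1 for any difference among the genotypes (1.16%). The run that held 10 libraries, taken alone, gave 0 (0.296%), 0 (0.375%) and 1 (0.418%), and 0 for any difference (0.471%), and lane as a covariate gave 0 (0.0693%), 0 (0.101%), 0 (0%) and 0 (0.117%). Fitting only the libraries compared gave 0 in eds1-2 against Col-0 (0.273%), 1 in R493A against Col-0 (0.438%) and 1 in R493A against w.tEDS1 (0.410%).

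With the replicate block the calls were 0 in eds1-2 against Col-0 (0.703%), 1 in R493A against Col-0 (0.847%), 2 in the joint comparison (0.757%, CHS1 and AT5G46490) and 0 for any difference (0.815%). R493A and w.tEDS1 were the only pair of groups whose same-numbered libraries all correlated above 0.1, at 0.15, 0.44 and 0.19. The same-numbered w.tEDS1 library correlated best for only 2 of the R493A libraries. In R493A against w.tEDS1 the block called 0 members, as without it, and the median over members was -0.21.

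When each library was left out in turn, the members called ranged from 0 to 23 in eds1-2 against Col-0 (0.301% to 17.6%), 0 to 20 in R493A against Col-0 (0.437% to 12.5%), 0 to 6 in w.tEDS1 against Col-0 (0.20% to 14.2%), 0 to 1 in eds1-2 (0.00526% to 0.337%) and in R493A against w.tEDS1 (0.0211% to 0.516%), 1 to 17 in the joint comparison (0.538% to 5.15%) and 0 to 13 for any difference (0.607% to 8.22%), with 0 to 0 for R493A against eds1-2 (0.0158% to 0.0686%) and for the difference of effects (0.0579% to 2.32%). Each upper end above 0 members came without Col-0 replicate 3, where the share of all tested genes was also highest. Members lower without overlap ranged from 24 to 30 in eds1-2 and 19 to 27 in R493A against w.tEDS1, 4 to 34 in eds1-2 against Col-0 and 4 to 12 in the joint comparison, counts that leaving out a library can, at a fixed scaling, only keep or raise. With all libraries kept, 5.09%, 7.68%, 10.3% and 1.11% of all tested genes were lower without overlap, in the same order. Leaving out a library can raise these shares too, so the ranges cannot be read against them. These alternatives for the overlap counts, the difference of effects and the test of any difference were chosen after seeing the data. The cause of these shifts was not tested.

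The median over members stayed below 0 in all 21 alternatives against w.tEDS1 for R493A (-0.33 to -0.18) and for eds1-2 (-0.37 to -0.29), and in the joint comparison it was -0.00275 with lane as a covariate. Depth limits the 10 members whose counts were too low to test, and RMG1 had as few as 6 counts in a library.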
